A study of Mus musculus with 13 samples.

Results

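The nuclear genes of oxidative phosphorylation were followed in total RNA from mouse hearts, measured on Illumina expression BeadChips with 1 array per sample. The members were all probes whose platform symbol starts with Ndufa, Ndufb, Ndufc, Ndufs, Ndufv, Uqcr, Cox4 to Cox8 or Atp5, or is Sdha, Sdhb, Sdhc, Sdhd, Cyc1 or Cycs. This rule matched 139 probes of 89 genes. Probes had to be detected (p-value under 0.05) on 3 arrays or more, which left 121 probes of 84 genes among 18693 probes of 10410 genes. The groups were male C57BL/6 mice of 8 to 10 weeks. Control mice (n = 5) were injected with PBS. Mice of the doxorubicin group (n = 5) received doxorubicin, an anthracycline chemotherapy drug that is toxic to the heart, and the pre-treated group (n = 3) received sAcvR2B-Fc 48 hours before doxorubicin. All injections were intraperitoneal, and hearts were taken 20 hours after doxorubicin or PBS. sAcvR2B-Fc is a soluble activin receptor that binds activins, myostatin and related ligands. A group given sAcvR2B-Fc without doxorubicin was not analysed here.

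Oxidative phosphorylation makes most of the ATP of the beating heart. Complex I (NADH dehydrogenase) and complex II (succinate dehydrogenase) pass electrons to ubiquinone, complex III passes them to cytochrome c, and complex IV (cytochrome c oxidase) passes them to oxygen. Complexes I, III and IV pump protons across the inner mitochondrial membrane, and complex V (ATP synthase) uses the gradient. Some subunits of complexes I, III, IV and V are encoded in mitochondrial DNA and all others in the nucleus. Heart muscle is rich in mitochondria, and doxorubicin is known to accumulate in them.

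By complex, the passing members were 5 of 6 core and 28 of 28 accessory subunits of complex I, 3 of 4 subunits of complex II, 8 of 8 of complex III, 14 of 16 of complex IV, 16 of 16 of complex V, and cytochrome c. The core subunits are those shared with the bacterial enzyme, and accessory subunits surround them. Another 9 passing genes were matched by their names but are not subunits. They are 7 complex I assembly factors (Ndufaf1, Ndufaf2, Ndufaf3, Ndufaf4, Ndufaf5, Ndufaf7 and Ndufaf8), the supercomplex factor gene Cox7a2l and the pseudogene Ndufs5-ps. Ndufa4 was counted with complex IV, where its product is now placed. The 5 genes that did not pass were Ndufs1, Sdha, Cox7b2, Cox8c and Ndufaf6, each with 1 probe.

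Signals were strong for most members. Heart-enriched isoforms stood near the top of the scale on every array, with log2 signals of 14.06 to 14.93 for Cox6a2, 14.56 to 14.87 for Cox7a1 and 14.42 to 14.84 for Cox8b. Cardiomyocyte markers were likewise abundant: 8 of the 10 listed were tested, and their summed signal was 113653 to 139909 on the control arrays, 110233 to 136376 on the doxorubicin arrays and 107138 to 133396 on the pre-treated arrays. Uqcrfs1, the iron-sulphur subunit of complex III, was near background with this probe (log2 signal 4.72 to 5.34), being detected on 0 control, 1 doxorubicin and 2 pre-treated arrays, so it is given no fold. Cox6b2, the testis isoform of a complex IV subunit, was detected on 2, 3 and 3 arrays of the control, doxorubicin and pre-treated groups, and Ndufb11 on 4, 3 and 3. In heart RNA, fewer cells of a type and less RNA per cell cannot be told apart.

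The deposited tables name different arrays for 8 of the 13 samples, and for 6 of these they differ in the group. The array names of the non-normalized table were used, and values under the series matrix names are given beside results that differ. The arrays also fell into a set of 8 and a set of 5 on the first principal component of the genes that are not members (28.6% of the variance). The 5 arrays that stood apart were control 4, control 5, doxorubicin 5, pre-treated 2 and pre-treated 3. Their component scores were 0.27 to 0.42, against at most 0.0074 on the other 8. Their median raw signal was 101.5 to 111.4, against 113.7 to 136.3. Of these 5 arrays, 4 were among the 6 that the tables place in different groups. The labels and files used here give no slide or batch for an array.

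Because nuclear genes of the chain are known to share promoter elements, the RefSeq windows of GRCm38.p6 from 250 bases before to 50 bases after each start were searched on both strands. A window was found for 71 of the 84 members. The core of the nuclear respiratory factor NRF1, GCGCATGC, was present in 13 (18.3%), compared with 5.82% of 8423 tested genes and 3.05% of 27025 genes with a window. The YY1 core AAGATGGC was present in 11 (15.5%, against 5.14% and 3.19%), and 7 of these were genes of complex I. The ETS core CCGGAAG was present in 18 (25.4%, against 19.4% and 9.93%), and the estrogen-related receptor core TCAAGGTCA in 2 (2.82%, against 0.309% and 0.466%). At least 1 of these motifs was present in 36 members (50.7%, against 27.7% and 15.3%). A match is only a run of letters in the window. The windows of 3 members that the results below turn on are printed 5′ to 3′ along the gene, with motif letters on either strand in capitals. Cox6a1 had the smallest p after doxorubicin alone, Ndufa11 the smallest p of pre-treatment against control, and Sdhd the widest spread between arrays. The NRF1 core overlaps its own reverse complement, which gives 1 longer run of capitals in the first 2 windows. Counted from the start, this run begins at position -162 in Cox6a1 and at -60 in Ndufa11. The other capitals are an ETS core in Cox6a1 and, in Sdhd, an ETS core and the estrogen-related receptor core.
Cox6a1, chr5:115348909-115349208, minus strand: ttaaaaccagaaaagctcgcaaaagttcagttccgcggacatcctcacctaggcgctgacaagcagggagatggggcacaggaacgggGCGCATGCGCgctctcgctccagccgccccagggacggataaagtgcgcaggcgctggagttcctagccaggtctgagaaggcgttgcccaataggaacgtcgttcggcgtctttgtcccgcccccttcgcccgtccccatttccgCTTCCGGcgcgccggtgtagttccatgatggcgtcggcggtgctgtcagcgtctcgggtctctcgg
Ndufa11, chr17:56717512-56717811, plus strand: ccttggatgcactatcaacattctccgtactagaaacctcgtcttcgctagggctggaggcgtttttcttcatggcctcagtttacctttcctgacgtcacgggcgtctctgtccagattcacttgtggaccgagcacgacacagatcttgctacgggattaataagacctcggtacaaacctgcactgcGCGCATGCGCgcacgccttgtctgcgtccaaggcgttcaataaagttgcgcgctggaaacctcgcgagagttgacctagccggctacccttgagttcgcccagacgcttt
Sdhd, chr9:50603800-50604099, minus strand: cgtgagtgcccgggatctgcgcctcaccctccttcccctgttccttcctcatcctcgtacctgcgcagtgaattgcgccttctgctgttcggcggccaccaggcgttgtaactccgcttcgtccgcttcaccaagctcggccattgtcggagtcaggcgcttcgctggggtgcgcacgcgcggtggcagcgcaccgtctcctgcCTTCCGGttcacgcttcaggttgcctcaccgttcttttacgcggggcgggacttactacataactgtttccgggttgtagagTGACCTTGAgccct

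Doxorubicin alone was compared with PBS to see what the drug changed in the heart within a day of injection. The level of no member was called after doxorubicin (limma, adjusted p under 0.05 over all genes), where 0.24% of all genes tested were called (25 of 10410, 17 higher and 8 lower). No gene (0) was called with the series matrix names (164 at an unadjusted p under 0.05). By unadjusted p under 0.05, 1 of 84 members passed (1.19%), a lower level, against 12.2% of all genes (5.98% higher and 6.27% lower). In no member did the groups not overlap, against 2.85% of all genes (1.47% higher and 1.38% lower). The difference was negative for 36 of 84 members and for 51% of all genes. The median log2 difference was 0.012 over the 33 genes of complex I, 0.034 over the 3 of complex II, 0.021 over the 8 of complex III (0.020 without Uqcrfs1), -0.012 over the 14 of complex IV and 0.013 over the 16 of complex V, beside -0.0043 over all genes. Scaling arrays by their median instead moved the median of all genes to 0.126, changed the split of called genes to 34 higher and 1 lower, and moved the members' median relative to that of all genes from 0.019 to -0.035.

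The fitted 95% interval of the doxorubicin difference lay within 0.5 log2 units of 0 in either direction (1.41-fold) for 68 of the 84 members (81%), compared with 66.1% of all genes. Among the 81 members detected on every array, 66 met this limit: 28 of 32 of complex I, 2 of 3 of complex II, 7 of 7 of complex III, 9 of 13 of complex IV, 12 of 16 of complex V, and others outside the complexes. A miss of the threshold does not show equal levels. The interval is that of the array signal, and 22 members had a mean log2 signal of 14 or more, near the top of the scale. The shares of members and of all genes were not matched for signal, on which the spread within groups depended. A mean log2 signal below 10 was found for 19 of the 84 members and for 8438 other genes of the 10410 tested.

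**Figure D1:**
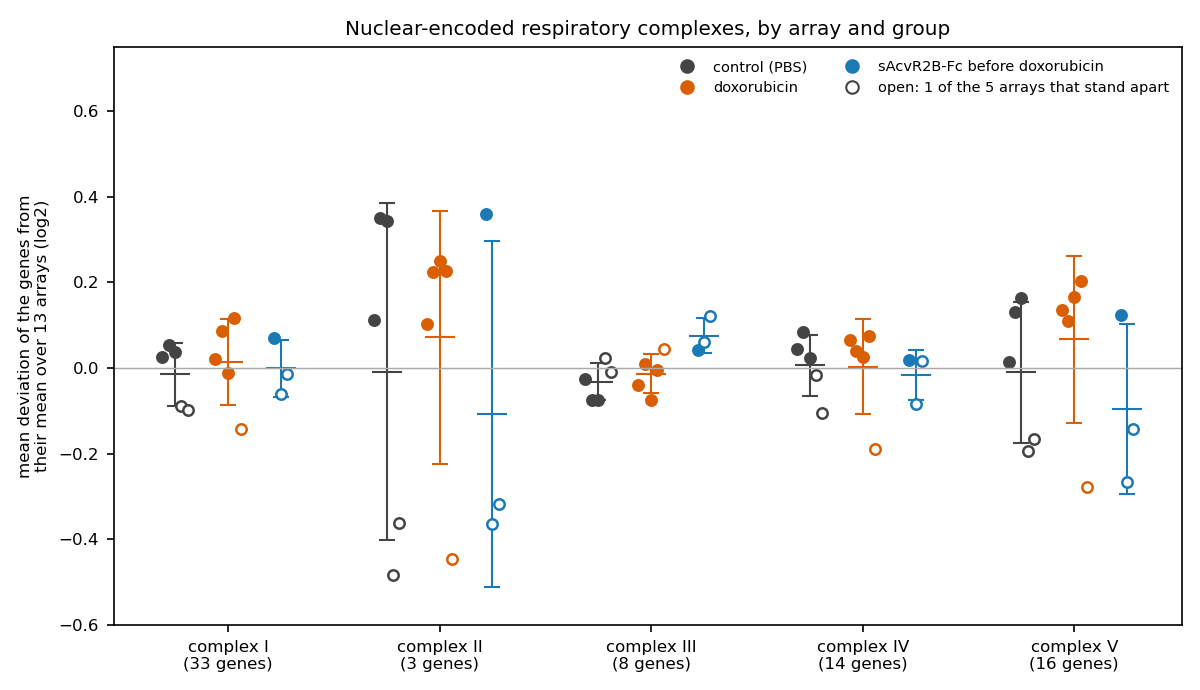
Mean deviation of the genes of each complex from their own mean over 13 arrays (log2 units), by array. Points are arrays, coloured by group, with group mean and SD as bars, and open points are the 5 arrays that stood apart: for complex II they lie at -0.32 or below in all groups, while in complex III, here with Uqcrfs1, the pre-treated arrays lie at 0.043 to 0.12. The complex II mean is over 3 genes, whose gaps between the array sets were -1.76 (Sdhd), -0.305 (Sdhb) and 0.024 (Sdhc).

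Within complex IV, Cox6a1, the isoform of subunit VIa found in most tissues, had the smallest p of all members after doxorubicin. Its log2 signals were 11.20, 11.29, 11.18, 11.04 and 10.99 on the control arrays, 10.84, 11.21, 10.57, 10.87 and 10.86 on the doxorubicin arrays, and 11.27, 10.91 and 11.04 on the pre-treated arrays. Doxorubicin 2 lay among the controls and the other 4 doxorubicin arrays lay below every control. The difference was -0.27 ± 0.12 (SE; 1.2-fold lower, limma adjusted p = 0.377), and the other Cox6a1 probe gave -0.21 ± 0.13. Under the series matrix names it was -0.11, without the 5 arrays that stood apart -0.35. The second smallest p of complex IV was that of Cox6b2 (0.22 ± 0.20). The striated muscle counterpart of Cox6a1, Cox6a2, stood at -0.014 ± 0.18 after doxorubicin, with doxorubicin 2 (14.06) and doxorubicin 4 (14.17) below the lowest control (14.34) and doxorubicin 3 (14.93) above the highest (14.87).

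The other isoform pairs of complex IV gave differences near 0 after doxorubicin. The common isoform Cox4i1 was at -0.034 ± 0.082 (95% interval -0.21 to 0.14). Cox4i2, its lung-enriched and oxygen-responsive counterpart, was at -0.068 ± 0.22. The muscle isoform Cox7a1 was at 0.044 ± 0.087, the common isoform Cox7a2 at 0.025 ± 0.25, and the muscle isoform Cox8b at -0.032 ± 0.085. Ndufa4 was at -0.0089 ± 0.080. Cycs, which encodes the somatic cytochrome c, was at -0.072 ± 0.076.

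In complex I the 2 smallest p-values of core subunits belonged to Ndufs8, an iron-sulphur subunit (-0.12 ± 0.086), and Ndufv1, which binds NADH (-0.058 ± 0.083). Among accessory subunits they belonged to Ndufb11 (-0.18 ± 0.14) and Ndufa9 (0.094 ± 0.079). In complex III they belonged to Uqcrq (0.17 ± 0.14) and to Cyc1, cytochrome c1 (-0.092 ± 0.089), and in complex V to Atp5g3, a gene of the membrane ring subunit c (-0.14 ± 0.10), and Atp5a1, the alpha subunit (0.41 ± 0.35, with -0.041 on its other probe). The lowest adjusted p of these was 0.64 for Ndufs8. The 2 of complex II, Sdhc and Sdhd, the membrane anchors, stood at -0.10 ± 0.12 and 0.31 ± 0.51. The wide errors of Atp5a1 and Sdhd go with the 5 arrays that stood apart. With the array set as a covariate, an alternative chosen after seeing the data, they became 0.17 ± 0.092 and -0.051 ± 0.13.

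**Figure D2:**
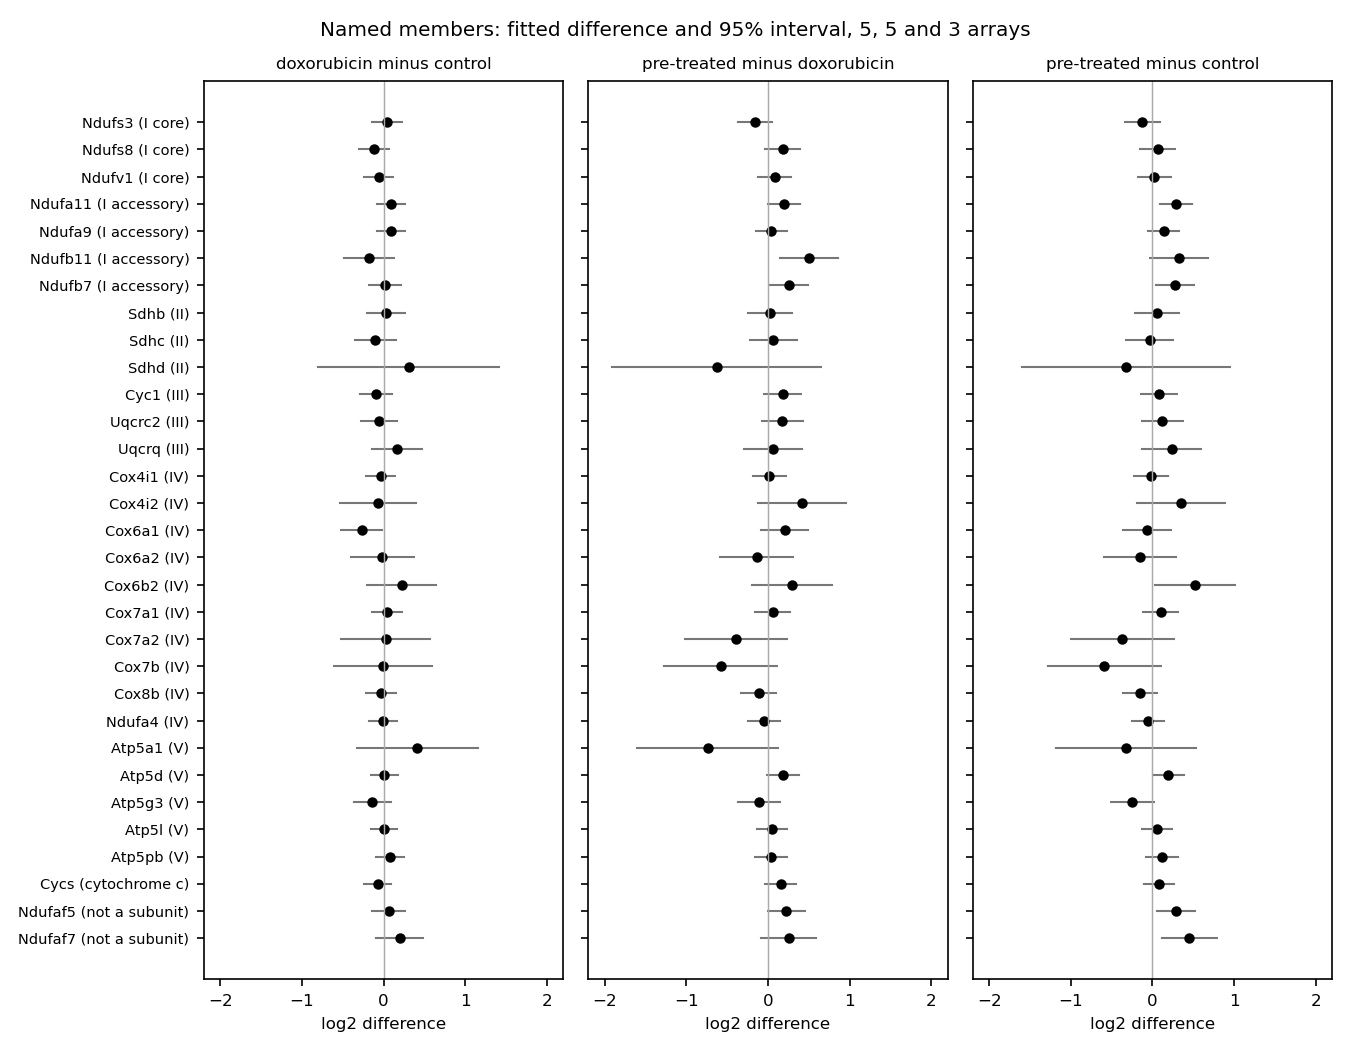
Fitted log2 differences of the 31 named members with 95% intervals (horizontal bars) in the 3 comparisons, from 5 control, 5 doxorubicin and 3 pre-treated arrays. Most points lie close to 0, Cox6a1 is at -0.27 after doxorubicin, Ndufb11 at 0.50 with pre-treatment against doxorubicin, and the widest bars belong to Sdhd and Atp5a1.

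Pre-treatment was compared with doxorubicin alone to see what sAcvR2B-Fc changed in drug-treated hearts. Again no member was called (0.0865% of all genes were, 0.0288% or 3 genes higher and 6 genes lower; under median scaling 1 higher and 5 lower). Under the series matrix names 0 genes were called (324 at an unadjusted p under 0.05). Unadjusted p was under 0.05 for 4 members (4.76%), against 11.3% of all genes (6.08% higher and 5.26% lower). All 4 were accessory subunits of complex I with higher levels in the pre-treated hearts: Ndufb11 (0.50 ± 0.16, adjusted p = 0.359), Ndufb7 (0.26 ± 0.11), Ndufa12 (0.24 ± 0.10) and Ndufa11 (0.20 ± 0.092). Ndufa12, like Ndufa3 and Ndufa8 below, was named after its values were seen. In the fit with the array set as a covariate, Ndufb11 stood at 0.55 ± 0.18 and Ndufa11 at 0.24 ± 0.0925. Ndufb7 stood at 0.24 ± 0.115 (limma unadjusted p = 0.0569) and Ndufa12 at 0.167 ± 0.094 (limma unadjusted p = 0.0982) in that fit, so these 2 no longer passed. Of the 28 accessory subunits, 7 had every pre-treated array above every doxorubicin array (Ndufa3, Ndufa8, Ndufa11, Ndufa12, Ndufb7, Ndufb11 and Ndufs4) and 0 had every array below. For Ndufs4 this held on the brightest of 4 probes (0.19), while the other 3 gave -0.15, -0.35 and -0.27. Ndufa3, Ndufa8 and Ndufs4 stood at 0.20, 0.15 and 0.19, and with the array set as a covariate at 0.13, 0.11 and 0.16. In all 84 members the counts of groups that did not overlap were 8 higher and 1 lower, with Atp5d, the delta subunit of ATP synthase, and the core subunit Ndufs3 added. Over all genes, 4.18% were higher and 2.8% lower in this sense (6.98% either way). The difference was negative for 34 members and for 46.5% of all genes. Under the series matrix names the median of complex I turned from 0.0605 to -0.034.

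Ndufb7, an accessory subunit on the membrane arm of complex I, had log2 signals of 9.31, 9.34, 9.11, 9.46 and 9.23 after doxorubicin and of 9.67, 9.46 and 9.51 with pre-treatment. The lowest pre-treated array and the highest doxorubicin array were 9.459 and 9.457, so the groups are parted by a very small gap. Under the series matrix names the Ndufb7 difference was 0.024, while that of Ndufa11 was 0.14 and that of Ndufb11 0.26. Ndufb11, an X-linked subunit, was close to background, with 4.97 to 5.52 on the doxorubicin arrays and 5.55 to 5.98 on the pre-treated arrays, and its other probe gave 0.092 ± 0.16.

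In complex III all 7 genes detected on every array had a positive difference with pre-treatment against either group. Uqcrfs1, near background, is left out of this count. The median of the 7 was 0.065 against doxorubicin and 0.086 against control, and no gene was called. For 6 of them the pre-treated arrays overlapped both other groups. The exception was Uqcrc1, a core protein gene named after its values were seen, with 13.76 to 13.78 against 13.62 to 13.75 on the control arrays (0.070 ± 0.080). The smallest p-values against doxorubicin belonged to Cyc1 (0.18 ± 0.10, adjusted p = 0.516) and the other core protein gene, Uqcrc2 (0.17 ± 0.12). The mean deviation of these 7 genes was 0.069, 0.044 and 0.11 on the pre-treated arrays (0.074 ± 0.033, SD). On the doxorubicin arrays it was -0.043, -0.038, -0.085, 0.037 and 0.053 (-0.015 ± 0.058), and on the control arrays -0.038, -0.075, -0.091, 0.047 and 0.010 (-0.029 ± 0.058). The lowest pre-treated array lay below doxorubicin 5 and control 4, so the pre-treated arrays overlapped both other groups. With Uqcrfs1 counted, the median of the 8 genes relative to all genes was 0.052 against doxorubicin and 0.0855 against control. Under median scaling these became 0.027 and -0.005. Under the series matrix names the median of the 8 was -0.089 against doxorubicin (3 positive) and 0.0076 against control (5 positive). Without the 5 arrays that stood apart, which leaves 1 pre-treated array, 5 of 8 were positive in both comparisons.

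The medians of the other complexes with pre-treatment against doxorubicin were 0.025 for complex II, 0.012 for complex IV and -0.039 for complex V, beside 0.018 over all genes. The smallest p-values were those of Cox7b (-0.58 ± 0.32) and Cox4i2 (0.42 ± 0.25) in complex IV, Atp5d (0.18 ± 0.090) and Atp5a1 (-0.74 ± 0.40) in complex V, Sdhd (-0.63 ± 0.59) and Sdhc (0.067 ± 0.13) in complex II, and Ndufs8 (0.18 ± 0.10) and Ndufs3 (-0.16 ± 0.098) among core subunits. With the array set as a covariate, Cox7b stood at -0.15, Atp5a1 at -0.18 and Sdhd at 0.21. The 95% interval lay within 0.5 log2 units of 0 for 64 of 84 members (76.2%, against 52.9% of all genes, again not matched for signal).

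Pre-treated hearts were also compared with PBS controls, which joins both agents in 1 contrast. This comparison shares the pre-treated arrays with the previous one and the controls with the first. No member was called, where 1.23% of all genes were (128 genes, 0.701% or 73 higher and 0.528% or 55 lower; under median scaling 17 and 8, with the median of all genes at 0.132 and that of the members at 0.064). With the names of the series matrix, 0 genes were called (358 at an unadjusted p under 0.05). Unadjusted p was under 0.05 for 9 members, 8 of them higher, against 18.3% of all genes (10.1% higher and 8.18% lower). The 9 members with every pre-treated array above every control, and the 1 below, stood beside 8.06% and 5.81% of all genes (13.9% either way). The difference was negative for 39 members and for 49.9% of all genes. The lowest adjusted p was that of Ndufa11, an accessory subunit on the membrane arm of complex I (adjusted p = 0.121). Its log2 signals were 12.49, 12.42, 12.60, 12.46 and 12.36 on the control arrays, 12.49, 12.52, 12.54, 12.66 and 12.56 on the doxorubicin arrays, and 12.89, 12.66 and 12.71 on the pre-treated arrays. Every pre-treated array lay above every control, and pre-treated 2 lay level with doxorubicin 4 (12.66) to the digits shown. The difference from control was 0.29 ± 0.092 (1.22-fold, 95% interval 0.089 to 0.48), 0.16 under the series matrix names and 0.31 with the array set as a covariate (adjusted p = 0.0851).

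Of the other named members against control, Ndufb7 was at 0.27 ± 0.11 (adjusted p = 0.198), Atp5d at 0.195 ± 0.090 (adjusted p = 0.268), Atp5g3 at -0.24 ± 0.12 and Cox7b at -0.59 ± 0.32. Cox6b2 was at 0.52 ± 0.23 but at -0.094 under the series matrix names. Uqcrq (0.23 ± 0.17) and Uqcrc2 (0.12 ± 0.12) had the smallest p-values in complex III, and Sdhd (-0.32 ± 0.59) and Sdhb, the iron-sulphur subunit (0.058 ± 0.13), in complex II. The isoform pairs stood at -0.016 for Cox4i1 and 0.35 for Cox4i2, at -0.066 for Cox6a1 and -0.15 for Cox6a2, and at 0.10 for Cox7a1 and -0.37 for Cox7a2. Cox8b was at -0.15, Ndufa4 at -0.054 and Cycs at 0.082. The median was 0.054 for complex I, -0.034 for complex II, -0.035 for complex IV and -0.039 for complex V, against 0.00089 over all genes.

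Assembly factors of complex I, which build the complex without staying in it, were also among the matched genes. Ndufaf7, a methyltransferase, was 1.37-fold higher in pre-treated hearts (0.45 ± 0.16, adjusted p = 0.15), with 7.57 to 7.90 on the control arrays and 7.95 to 8.44 on the pre-treated arrays, and -0.077 under the series matrix names. After doxorubicin alone it was at 0.20 ± 0.14. Ndufaf5 was at 0.29 ± 0.11 (adjusted p = 0.175), on 1 of its 2 probes. Ndufaf3, named here after its values were seen, was 1.60-fold lower (-0.67 ± 0.26, adjusted p = 0.187), and its pre-treated arrays (6.18 to 6.42) lay under every control (6.57 to 7.49). With the array set as a covariate it was at -0.515 ± 0.18 (adjusted p = 0.135). The pseudogene Ndufs5-ps, also named after its values were seen, was at 0.31 ± 0.14. Its probe may not be told apart from Ndufs5, the gene it derives from.

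A part of the members followed the 2 sets of arrays, which cross the treatment groups. All 5 arrays that stood apart lay below all other 8 for 14 of 84 members (16.7%), where 5.23% of all genes tested did so, and above them for 0 members (1.53% of all genes). Of 34 assembly factors outside the rule, 8 also lay lower on all 5 arrays, so the pattern was not particular to the members. The 14 members are described here and were not tested. They were Sdhd and Sdhb of complex II, the complex I accessory genes Ndufb2, Ndufb4, Ndufb5 and Ndufb9, Cox6c, Cox7a2 and Cox7b of complex IV, Atp5a1, Atp5e, Atp5k and Atp5md of complex V, and the assembly factor Ndufaf2. No core subunit of complex I and no gene of complex III was among them. Of the 14, all but Atp5a1 and Sdhb had a single passing probe. In those 2 genes the probe that represents the gene was lower, while the other probes overlapped between the sets. The list is therefore one of single probes, and need not hold for the whole gene or its complex. Of the 14, 11 had a promoter window, and 5 of these held any of the motifs (45.5%, against 50.7% of all members with a window). By motif, the ETS core was in 5 (45.5%, against 25.4%) and the YY1 core in 0 (against 15.5%). The NRF1 core was in 2 (18.2%, against 18.3%) and the estrogen-related receptor core in 1 (9.09%, against 2.82%). These shares of 11 windows were not tested.

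Sdhd, a membrane anchor of succinate dehydrogenase, showed the widest gap. Its log2 signals were 9.83, 10.10, 9.97, 7.91 and 8.27 on the control arrays, 9.75, 10.05, 9.87, 10.07 and 7.87 on the doxorubicin arrays, and 9.78, 8.47 and 8.42 on the pre-treated arrays. In each group the arrays of the set of 5 were low and the others high, and the groups overlapped. Averaged within groups, the gap was -1.76 log2 units (3.38-fold). It was -1.72 for Atp5md, -1.63 for Ndufb9, -1.39 for Atp5e and Ndufb2, -1.25 for Ndufb4 and -1.21 for Atp5a1, and it narrowed to -0.35 for Cox6c and -0.305 for Sdhb. Atp5e and Atp5md encode small subunits of ATP synthase. Because 2 of the 3 pre-treated arrays, 2 of 5 controls and 1 of 5 doxorubicin arrays are in this set, the group means of these members moved with it: the pre-treated mean was below the doxorubicin mean for all of the 14 but Sdhb. For Ndufb9 the pre-treated minus doxorubicin difference was -0.84 ± 0.54, and with the array set as a covariate it was -0.081 ± 0.16.

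**Figure D3:**
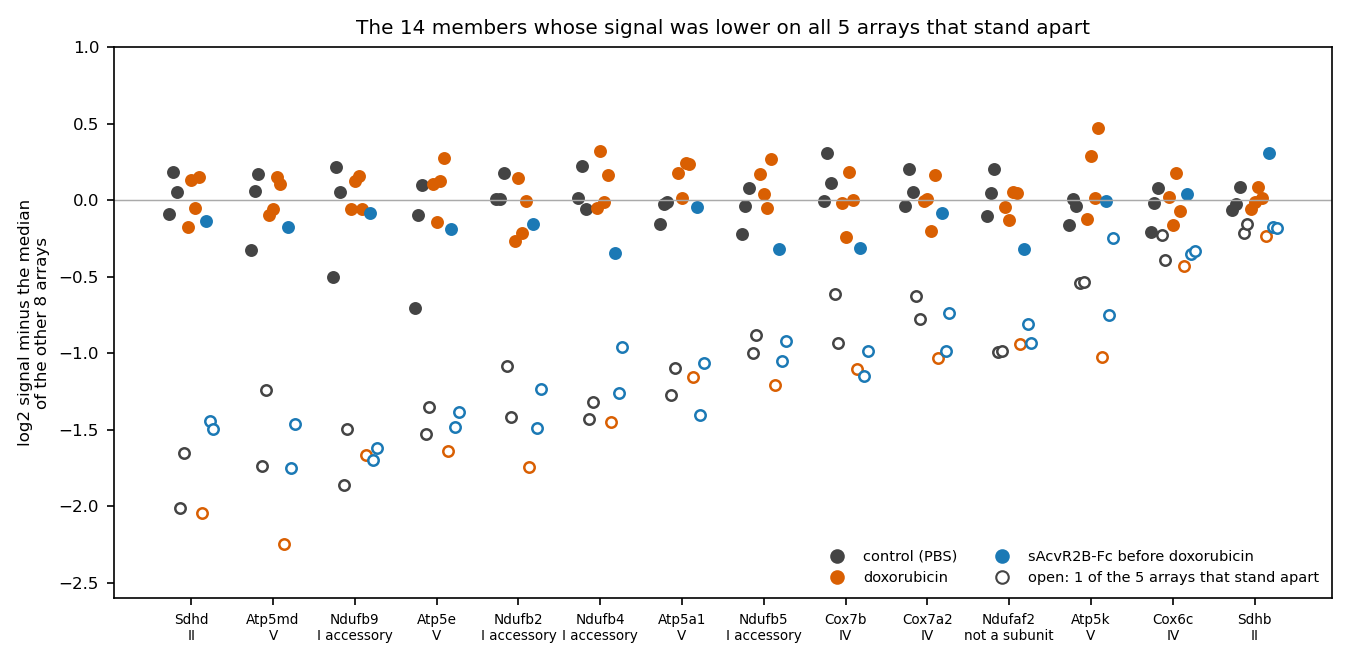
Log2 signal of the 14 members on each of 13 arrays, relative to the median of the 8 arrays that did not stand apart. Each point is 1 array, coloured by treatment group. Open points, the 5 arrays that stood apart, lie below all filled points for every gene shown, with a mean gap from -1.76 (Sdhd) to -0.30 log2 units.

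Where a gene had several probes, the low signals on these 5 arrays were found on some of its probes and not on others. Of the 121 member probes, 24 (19.8%) were lower on all 5 arrays than on the other 8, against 5.88% of the 18693 passing probes. Of the 28 members with several passing probes, 10 had at least 1 such probe, and in 0 of the 10 did every probe show it. Over all genes with several passing probes the same held for most: 484 of 3828 had at least 1 such probe, and in 20 of them every probe showed it (4.13%). For Ndufa5, an accessory subunit of complex I, 1 probe stood at -1.54 log2 units, from 9.46 to 9.94 on the other 8 arrays to 7.94 to 8.64 on the 5, while the probe that represents the gene stood at 0.032. For Cycs the 3 probes gave -1.43, 0.075 and -0.0105, for Atp5a1 -1.21 and 0.10, and for Ndufaf5 -1.36 and 0.13. In Ndufs4, which encodes an accessory subunit near the NADH-binding module, 3 of 4 probes were lower (-0.99, -0.50 and -0.41) and the brightest was not (0.053). Ndufb10 had both probes lower on average (-0.80 and -0.56), but the brighter probe overlapped between the sets. The cause was not tested.

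**Figure D4:**
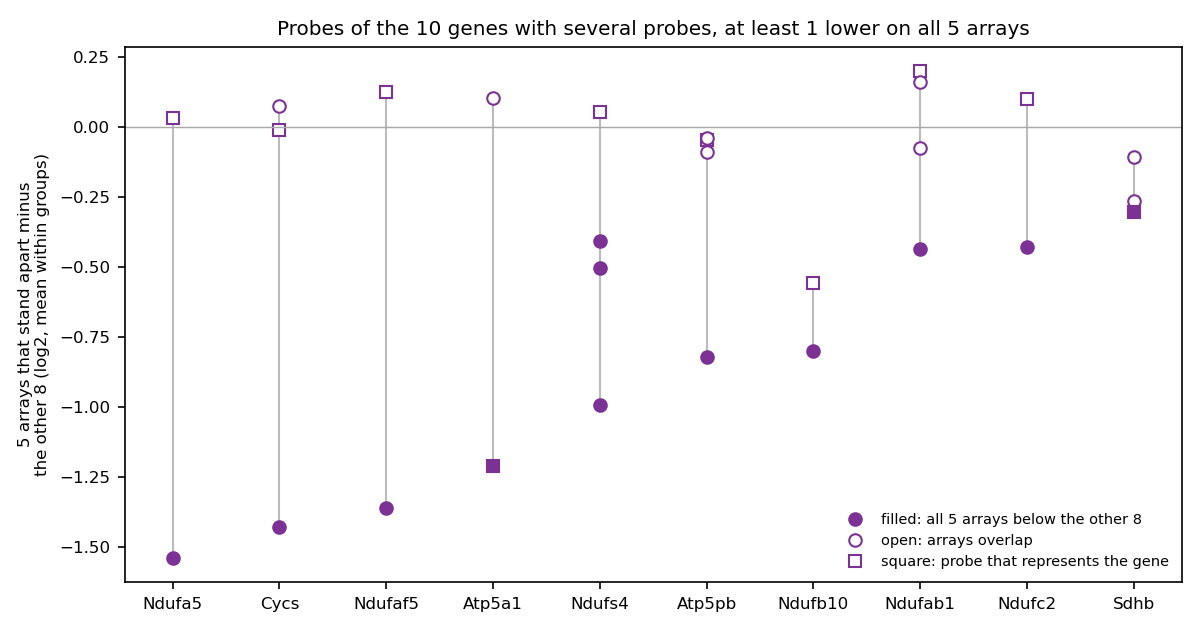
Difference between the 5 arrays that stood apart and the other 8 (log2 units, mean of the differences within treatment groups) for every passing probe of the 10 members with several probes of which at least 1 was lower on all 5 arrays. Filled symbols are such probes, squares mark the probe that represents the gene: in Ndufa5 the probes lie at -1.54 and 0.032, and no gene has filled symbols alone.

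The same 28 members allowed a check of the treatment comparisons by probe. All passing probes of a gene had the same sign for 13 of 28 genes after doxorubicin, for 12 with pre-treatment against doxorubicin and for 13 against control. The median spread between the probes of a gene was 0.115, 0.14 and 0.17 log2 units. In each comparison this was larger than the difference on the representing probe for most of these genes. In the fit of all 18693 probes, 0 of 121 member probes was called in each comparison, where 34, 12 and 126 of all probes were. Probes of opposite sign with at least 1 unadjusted p under 0.05 were found in Atp5l after doxorubicin, where one gave 0.0046 and the other -0.355 ± 0.15. With pre-treatment against doxorubicin the 4 probes of Atp5pb, a stalk subunit gene, ranged from -0.48 to 0.32, and against control from -0.43 to 0.24. For Ndufaf5 against control, 1 probe gave 0.29 and the other -0.63 ± 0.48. By contrast, both probes of Cox6a1 were lower after doxorubicin and both probes of Ndufa3, an accessory subunit named after its values were seen, were higher with pre-treatment against control (0.26 ± 0.12 and 0.28 ± 0.10).

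Neighbouring parts of the pathway gave no called gene in any comparison either. Of the 13 mitochondrially encoded subunits, 8 were tested. Their median difference was 0.062 (6 of 8 positive) after doxorubicin, -0.19 (1 of 8 positive) with pre-treatment against doxorubicin and -0.11 (1 of 8 positive) against control. One of the 8, ND5, was detected on 3 doxorubicin arrays and on 0 of the others, and without it the medians were 0.031 (5 of 7 positive), -0.23 (1 of 7) and -0.12 (1 of 7). The smallest p was that of CYTB after doxorubicin (0.13 ± 0.11) and of COX2 in both comparisons of pre-treatment (-0.39 ± 0.19 and -0.36 ± 0.19). Their mean deviation followed the array sets, with -0.36 to -0.255 on the 5 arrays that stood apart and 0.071 to 0.27 on the other 8. Taken singly, 2 of the 8 genes were lower on all 5 arrays than on the other 8. Of 13 genes of the tricarboxylic acid cycle, which feeds the chain with NADH, 12 were tested, with medians of 0.024, -0.036 and -0.023 in the 3 comparisons. Idh3b, a subunit of isocitrate dehydrogenase, was at -0.25 ± 0.096 after doxorubicin (adjusted p = 0.29) and at -0.35 ± 0.11 in pre-treated hearts against control (adjusted p = 0.114), and Sucla2, a succinyl-CoA ligase subunit, at -0.64 ± 0.35 against doxorubicin. The cycle's mean deviation was -0.16 to -0.092 on the 5 arrays and 0.0080 to 0.13 on the others. Taken singly, 1 of its 12 genes was lower on all 5 arrays, where 5.23% of all genes tested were. A list mean can be carried by a few genes of wide spread, so these means do not describe every gene.

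Of 41 further assembly factors, 34 were tested. Unadjusted p was under 0.05 for 3, 5 and 6 of them in the 3 comparisons, beside 12.2%, 11.3% and 18.3% of all genes, with medians of 0.0024, 0.059 and -0.036. Taken singly, 8 of the 34 were lower on all 5 arrays that stood apart and 0 were higher, where 5.23% and 1.53% of all genes tested were. Sdhaf4, an assembly factor of complex II, was at -0.285 ± 0.099 after doxorubicin (adjusted p = 0.244). Tmem70, which assembles ATP synthase, was at 0.305 ± 0.087 with pre-treatment against doxorubicin (adjusted p = 0.294) and at 0.32 ± 0.087 against control (adjusted p = 0.0811). Of the ATP synthase inhibitor and the ADP/ATP and phosphate carriers, 3 of 6 listed names were tested. The phosphate carrier gene Slc25a3 had the smallest p of the 3 in every comparison (0.15 ± 0.13, -0.30 ± 0.155 and -0.15 ± 0.155).

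Neutrophil markers, 5 of 7 tested (Ly6g not analysed here, Cxcr2 not passing the filter), had a summed signal of 132 to 207 on the control arrays, 367 to 891 on the doxorubicin arrays and 468 to 509 on the pre-treated arrays, and 2 of them, S100a8 and S100a9, were called higher after doxorubicin (2.55 and 2.79 log2 units). Each of the 2 was detected on only 1 of 5 control arrays, so the size of its difference depends on the background level. Csf3r and Retnlg were detected on 0 control arrays. These calls were lost under the series matrix names, where 0 genes were called, without the 5 arrays that stood apart (limma adjusted p = 0.107 for S100a9) and with arrays of the same group in both tables (0.0744). Macrophage markers, 6 of 7 tested, ranged from 1227 to 2089, from 1952 to 2274 and from 2157 to 3352, with 0 called. Their medians in the 3 comparisons were 0.41 (4 of 6 positive), 0.225 (5 of 6) and 0.604 (6 of 6). The smallest p was that of Fcgr1 after doxorubicin (0.84 ± 0.18, limma adjusted p = 0.0838). With pre-treatment it was that of C1qb, at 0.33 ± 0.19 against doxorubicin and 0.80 ± 0.19 against control (adjusted p = 0.0553). Cardiomyocyte markers had medians of -0.046, -0.093 and -0.14 in the 3 comparisons with 0 of 8 called, the smallest p being that of Myh6 (-0.14 ± 0.14) after doxorubicin and of Pln (-0.40 ± 0.18 in both others) with pre-treatment. Medians in the same order were -0.21, -0.041 and -0.065 for 6 fibroblast markers, -0.019, -0.037 and -0.054 for 6 endothelial markers, -0.25, 0.048 and -0.22 for 6 smooth muscle and pericyte markers, and -0.48, -0.15 and -0.63 for 4 erythroid markers. The pericyte gene Kcnj8 was at -0.44 ± 0.089 after doxorubicin (limma adjusted p = 0.0618), 0.051 ± 0.10 with pre-treatment against doxorubicin and -0.385 ± 0.10 against control (adjusted p = 0.0783). Of the adipocyte list (Adipoq, Plin1, Lep, Cidec and Ucp1 not passing) only Cidea passed the filter (0.027, 0.40 and 0.43), and of the skeletal muscle list 2 of 8 genes did (0.017, 0.077 and 0.094). The part of these cells in the members' levels was not tested.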

How the data were processed

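Per the labels' protocols, total RNA was extracted from hearts with TRIsure reagent, column-purified, converted to biotin-labelled cRNA and hybridised to Illumina expression BeadChips. The non-normalized table deposited by the authors gives for every probe a linear signal intensity on each array, without scaling or background subtraction, and beside it a detection p-value, per the file headers. The deposited series matrix holds intensity values that look background-subtracted and quantile-normalized. The sources used here name no software for either table. Alternatives that used the series matrix raised its values below 1 to 1 and took log2.

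Signals were background-corrected with normexp through the detection p-values, quantile-normalized and log2-transformed with neqc (limma 3.58.1, R 4.3.3, offset 16). Probe symbols came from the platform annotation, with gene identifiers matched to GRCm38.p6 (34885 probes with 1 symbol, 18 with several, 10378 unnamed). The brightest passing probe on average stood for a gene. Arrays had median raw signals of 101.5 to 136.3, with 15989 to 17939 detected probes. The number of arrays limits the precision.

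The 3 groups were fitted in 1 limma model (lmFit, eBayes, two-sided, no covariates), with Benjamini-Hochberg adjustment over all genes of a comparison and a call at an adjusted p under 0.05. Errors are SE of the fit unless SD is named. A difference whose 95% interval spans 0 was given no direction, so it could not count as reversed. Each array was taken as 1 mouse, which the labels do not state, so p-values measure the spread between these arrays. In simulated data with 200 changed of 10410 genes, a log2 change of 1 was recovered for 90%, 81% and 83% of genes (doxorubicin against control, pre-treated against doxorubicin, pre-treated against control) and a change of 0.5 for 39%, 28% and 30%. False calls were 6, 7 and 8. The simulated noise was independent between genes and arrays and held no array sets. The shares therefore check the fit and do not give the power of the real arrays, which fell into 2 sets.

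The members and lists were chosen with earlier results of these data known. Named were, in each comparison, the 2 members with the smallest p of each class, the matched gene that is no subunit with the smallest p, complex IV isoform pairs, Ndufa4, Cycs, members whose probes differ in sign with an unadjusted p under 0.05, and of each further pathway list the gene with the smallest p. Of the cell type markers only a part was named. The alternatives were other background correction and scaling, other probe filters, the mean of a gene's probes, the series matrix assignment and values, arrays whose group is the same in both tables, a replicate block, only the groups compared, and leaving out each array. Leaving out the 5 arrays that stood apart, and their set as a covariate, were added after seeing the data.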

Additional observations from a re-analysis of the deposited data

Results flagged for a closer look

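Within groups of 5 arrays, 72 sets of values of named members and complexes were examined for 1 array lying far from the others, and 8 were found. For independent sets chance gives about 1 in 20. These sets share the same arrays, and named members also enter the complex means, so the count cannot be set against that rate. Of these, 6 concern doxorubicin 5, which is 1 of the 5 arrays that stood apart and is placed in another group by the series matrix. Its Sdhd log2 signal was 7.873, against 9.746 to 10.07 on the other 4 doxorubicin arrays, and its Atp5a1 signal was 10.95, against 12.12 to 12.35. Its mean deviation was -0.4449 for complex II (others 0.1031 to 0.251), -0.19 for complex IV (others 0.02679 to 0.07525) and -0.2779 for complex V (others 0.1094 to 0.2038). Its Atp5pb signal was higher than the others, 12.8 against 12.65 to 12.68.

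In the control group, Atp5pb stood at 12.73 on control 3, against 12.57 to 12.6 on the other 4 arrays, and Cox4i1 at 14.76 on control 5, against 14.66 to 14.68.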

How the results depend on the processing

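No member was called in the 25 alternative settings (23 planned), where the lowest adjusted p was 0.0512 (Ndufa11, pre-treated against control, without background correction). What moved were counts over all genes and complex medians. Here A is doxorubicin against control, B pre-treated against doxorubicin and C pre-treated against control. Calls in A (25) were 42 without background correction, 38 with probes detected on all arrays, 4 with a replicate block and 0 under the series matrix assignment, its values, arrays of the same group in both tables, and without the 5 arrays that stood apart (limma unadjusted p under 0.05: 164, 178, 732 and 1189 genes). They ranged from 3 (without doxorubicin 1) to 332 (without doxorubicin 2), and also moved without controls 2 to 5, doxorubicin 3 and 4, or pre-treated 2. Calls in B (9) were 0 under the series matrix assignment and its values (unadjusted 324 and 348), 4 with same-group arrays and 64 with the block. Calls in C (128) were 243 without background correction, 25 under median scaling, 0 under the matrix assignment and values (unadjusted 358 and 362), 6 with same-group arrays, 210 with the block and 9 without the 5 arrays. They ranged from 25 (without control 3) to 294 (without doxorubicin 2), and moved by over 1.5 times for all arrays left out but control 5 and doxorubicin 3 and 5. The replicate numbers did not pair the arrays: same-numbered arrays correlated at -0.245 to 0.386, 4 of 11 pairs over 0.1, so the block is no paired analysis.

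Under median scaling the medians in A were 0.101 for complex I and 0.0701 for complex III, and in B -0.0992 for complex IV. These stand beside all-gene medians of 0.126 and 0.0214. Complexes II, IV and V were at 0.154, 0.0737 and 0.105 in A, and complex V at -0.104 in B. Under the matrix assignment B gave -0.0336, -0.0894 and -0.0948 for complexes I, III and IV (matrix values -0.0334, -0.0879, -0.0972), and C gave -0.0341 and 0.00758 for I and III (-0.0329, 0.0144). Same-group arrays gave 0.385 for II and 0.0368 for III in C. Complex III in B ranged from 0.0401 to 0.12 (without pre-treated 3 and 1). Complex IV in B was -0.0761 without the 5 arrays. In C, Ndufaf5 turned to -0.171 as the mean of its probes, and Cox6b2 and Ndufaf7 to -0.0939 and -0.0767 under the matrix assignment (values: -0.0936, -0.0812). The causes were not tested. Uqcrfs1, Cox6b2 and Ndufb11 were near background, which limits their values.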

Other observations

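The median SD within groups was 0.122 log2 units over the 84 members and 0.216 over all 10410 genes, and it depended on the signal. At a mean log2 signal of 13 to 14 it was 0.0778 over 21 members and 0.118 over 105 other genes. The order was the same at 12 to 13 (0.106 against 0.125) and at 14 to 16 (0.104 against 0.129). Below 10 the order was the other way, with 0.397 over 19 members and 0.235 over 8438 other genes, as it was at 10 to 12 (0.182 against 0.146). Sdhd, Atp5md and Atp5e, which followed the array sets, were among those below 10. Over the members the SD within groups was lowest for Uqcrc1 (0.0446) and highest for Sdhd (0.948). By complex it was 0.101 for complex I, 0.179 for complex II, 0.12 for complex III, 0.155 for complex IV and 0.124 for complex V.

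The YY1 core was found in 7 of 31 promoter windows of complex I and 3 of 14 of complex V, and in 0 of the 10 of complex IV and 0 of the 5 of complex III.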
